A study of Homo sapiens with 16 samples.

Results

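The metallothionein genes were followed in SUM-225 cells, an established line of HER2-amplified breast cancer cells, while the HER2 kinase was inhibited. They are MT1A, MT1E, MT1F, MT1G, MT1H, MT1M, MT1X and MT2A, and were taken by gene symbol from the table of array probes, 8 of the 18631 symbols there. The 8 genes were proposed with their values in these samples known, and their courses are therefore given as a description, with no p-value of their own. Each gene had 1 probe, so that 8 of 24526 probes are described. Parallel cultures received 1 µM CP724,714, a small molecule inhibitor of the HER2 kinase, and 1 was harvested at each 3 h interval between 0 and 45 h. Each of the 16 time points was measured on 1 Illumina bead array and had no replicate. The labels give Ham's F-12 medium with 5% fetal bovine serum, 5 µg/ml insulin and 1 µg/ml hydrocortisone for every culture, including the one harvested at 0 h. The study's methods instead give a medium without serum or insulin for SUM-225, also with hydrocortisone, and which of the 2 was used is not settled here. Cultures grown without the inhibitor were not analysed here, and the effect of the inhibitor cannot be told apart from that of the hours in culture. The study's methods also give a change of medium when treatment began, in a passage on its other cell lines. If it was made here, its effect cannot be told apart either.

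Metallothioneins are small proteins very rich in cysteine that bind zinc and copper, and also toxic metals such as cadmium. Their genes are switched on when free zinc rises, through the zinc-sensing transcription factor MTF1 and short metal response elements before the gene. They are also known to respond to glucocorticoids such as hydrocortisone and to oxidants. The MT1 genes and MT2A lie in 1 cluster on chromosome 16, and in the RefSeq gene table of GRCh38.p14 the 8 genes follow each other in the order MT2A, MT1E, MT1M, MT1A, MT1F, MT1G, MT1H and MT1X, with pseudogenes and MT1B among them. The transcripts of the family are closely similar, and a probe for 1 member can bind transcripts of another. The table gives no probe sequences, so cross-hybridisation was not tested, and a value below is the signal of a probe and not the amount of 1 transcript.

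The RefSeq promoter table of GRCh38.p14 held 3 of the 8 genes, MT1H, MT1X and MT2A. Their 250 bases before the annotated start are shown because they carry the metal response elements through which the family is known to respond to zinc. All 3 genes are on the plus strand, and the windows are chr16:56669564-56669813 for MT1H, chr16:56682220-56682469 for MT1X and chr16:56608334-56608583 for MT2A. Capitals mark each match, on either strand, to TGCACNC or TGCGCNC, the core of a metal response element.
MT2A: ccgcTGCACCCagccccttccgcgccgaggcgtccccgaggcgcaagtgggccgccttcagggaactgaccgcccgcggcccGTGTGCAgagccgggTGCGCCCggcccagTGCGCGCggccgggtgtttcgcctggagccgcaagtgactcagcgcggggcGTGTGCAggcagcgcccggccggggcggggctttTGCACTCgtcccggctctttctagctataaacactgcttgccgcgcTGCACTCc
MT1X: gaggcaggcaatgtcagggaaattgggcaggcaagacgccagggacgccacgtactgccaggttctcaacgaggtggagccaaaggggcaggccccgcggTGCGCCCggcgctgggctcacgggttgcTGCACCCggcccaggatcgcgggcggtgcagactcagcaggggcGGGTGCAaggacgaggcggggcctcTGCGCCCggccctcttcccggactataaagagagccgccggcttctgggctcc
MT1H: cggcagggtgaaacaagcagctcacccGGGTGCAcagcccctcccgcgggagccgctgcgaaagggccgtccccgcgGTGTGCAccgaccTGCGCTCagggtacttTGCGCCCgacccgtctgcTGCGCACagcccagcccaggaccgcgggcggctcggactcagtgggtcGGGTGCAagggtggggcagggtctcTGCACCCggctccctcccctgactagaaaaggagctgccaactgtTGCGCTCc

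The MT2A window held 7 matches, the MT1X window 4 and the MT1H window 8. Of all 35116 promoters of the same length in the table, 24.8% held at least 1 such match and 0.37% held at least 4. As many matches as in MT2A were found in 0.0313% of promoters, and as many as in MT1H in 0.0171%. The 3 windows are rich in G and C, 73.2% in MT2A, 70.0% in MT1X and 70.4% in MT1H, and the letters of the element are common in such sequence. The TATA box letters TATAAA, found in 10.7% of all promoters, were present once in MT2A, from position -29 relative to the start, and once in MT1X, from position -30. They were not found in the MT1H window. The AP-1 site letters TGACTCA or TGAGTCA, found in 4.2% of promoters, were present once, in MT2A. TATAAA and the AP-1 letters were searched on both strands and none of these matches overlapped a metal response element match. A match is a description of the sequence.

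**Figure D1:**
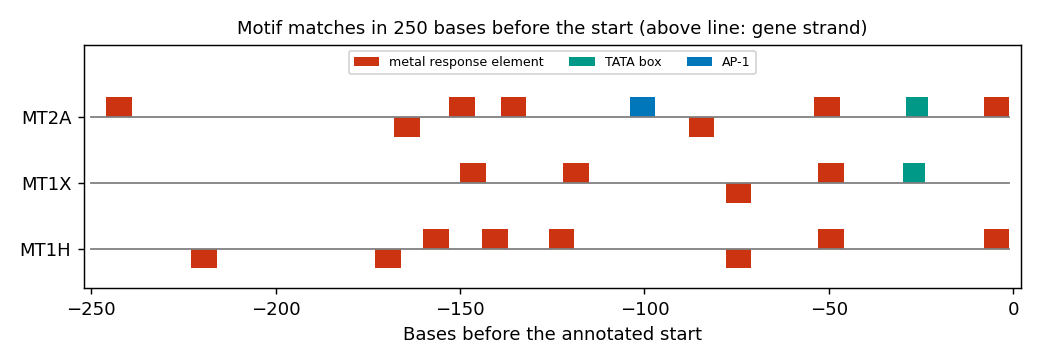
Matches to the metal response element core (red), the AP-1 site (blue) and the TATA box (green) in the 250 bases before the annotated start of MT2A, MT1X and MT1H, the horizontal axis giving the distance in bases. Boxes above a line lie on the strand of the gene and boxes below it on the other strand, and the windows hold 7, 4 and 8 metal response element matches.

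The arrays were comparable in most respects. Median signals ranged from 242 to 384 and between 57.5% and 61.5% of probes had a detection p-value under 0.05, which counts a probe as detected. The top of the scale, taken as the maximum over probes, lay between 71727 and 74152 on the 16 arrays. The array at 27 h had the highest median signal, and every member detected on all 16 arrays had a local maximum of its deposited signal there. Signals were therefore corrected for background and quantile normalized, and log2 values below are on that scale. The epithelial and HER2 markers were present, with ERBB2, GRB7, KRT8, KRT18, KRT19, TACSTD1 (EPCAM in RefSeq) and CDH1 detected on all 16 arrays. Of the fibroblast markers COL3A1, DCN and PDGFRB were detected on 0 arrays, and COL1A1 and COL1A2 on 5 each. Of the leukocyte markers PTPRC was detected on 0 arrays, CD3E on 1 and CD68 on 16, and of the endothelial markers CDH5 was detected on 1, VWF on 13 and PECAM1 on 16. Some markers moved with the course: the linear change over 45 h, estimated as described below, was -0.68 ± 0.10 (SE) log2 units for KRT8 and -0.74 ± 0.10 for KRT18, 2.51 ± 0.28 for VWF and 0.38 ± 0.14 for CD68 (limma, adjusted p = 2.14e-05, 7.73e-06, 4.03e-07 and 0.0341). Their part in the courses of the metallothioneins was not tested.

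MT1G had the largest measured decrease of the 7 tested members, with the limit that the MT2A and MT1A probes started near the top of the scale. Its signal was 3276, 2172, 1251 and 891 from 0 to 9 h, and then 674, 623, 565 and 559.9 from 12 to 21 h. It was 572, 815, 507 and 415 from 24 to 33 h and 303, 307, 303 and 304 from 36 to 45 h. The 4 arrays of 0 to 9 h did not overlap any later array, and the probe remained detected on all 16. After normalization MT1G had a log2 value of 11.67 at 0 h, reached 9.54 by 9 h and ended at 7.44, which is 18.8-fold lower at 45 h than at 0 h. The size of this decrease depends on the background step. Without background correction the linear change of MT1G over 45 h was -2.998 against -4.04 log2 units. The largest step came between 6 and 9 h, a log2 difference of -1.13, and 0.36% of all tested probes had a step as low in that interval. Of all tested probes, 0.0435% were as low at 45 h relative to 0 h.

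MT1F and MT1H are neighbours of MT1G in the cluster and had nearly the same course as each other. The MT1F signal was 17986, 12039, 7238 and 9031 from 0 to 9 h, and 7698, 7669, 7545 and 7673 from 12 to 21 h. It was 9052, 14775, 9596 and 6898 from 24 to 33 h and 4785, 6142, 6175 and 4496 from 36 to 45 h. In this signal the 4 late arrays lay below every earlier array, whereas the 0 to 9 h and 24 to 33 h arrays overlapped. After normalization the late arrays, with log2 values up to 12.56, overlapped those of 12 to 21 h, which reached down to 12.46. The MT1H signal was 808, 582, 425 and 565 from 0 to 9 h, and 438, 429, 410.3 and 451 from 12 to 21 h. It was 543, 789.5, 515 and 413 from 24 to 33 h and 310.0, 392, 370.4 and 356 from 36 to 45 h. On the log2 scale MT1F went from 14.10 at 0 h to 12.45 at 45 h, 3.15-fold lower, and MT1H from 9.46 to 7.94, 2.86-fold lower. Without background correction the linear change of MT1H over 45 h was -0.81 against -1.21 log2 units. Most of the difference was present by 12 h, when MT1F stood at 12.87 and MT1H at 8.06, but it was not held. At 24 h MT1F stood higher again at 13.22 and MT1H at 8.64. Relative to their 0 h values the 2 probes differed from each other by at most 0.38 log2 units on any array.

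MT1E was dim and was detected on 11 of the 16 arrays. Its signal was 404, 318, 258 and 269.9 from 0 to 9 h, and 269, 279, 245 and 263 from 12 to 21 h. It was 316, 363, 222 and 216 from 24 to 33 h and 232, 246, 204 and 242 from 36 to 45 h, and apart from the first array these sets overlapped. The arrays on which it was not detected were those at 18, 21, 30, 33 and 42 h. Its log2 value was 8.01 at 0 h and 6.39 at 45 h, 3.09-fold lower. This value depends on the background step, since without background correction the linear change of MT1E over 45 h was -0.64 against -1.54 log2 units.

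MT2A, the most widely expressed member of the family, and MT1A had their largest decrease late in the course. The MT2A signal was 71376, 70931, 69604 and 65600.0 from 0 to 9 h, and 59899.5, 50666, 46186 and 48332 from 12 to 21 h. It was 51158, 61666, 49691 and 36844 from 24 to 33 h and 18738, 21998, 19406 and 15720.0 from 36 to 45 h. The 4 late arrays lay far below every earlier one. The signal was between 95.35% and 98.0% of the brightest signal on the arrays of 0 to 6 h, so that an early change of MT2A may not have been resolved. The MT1A signal was 70906, 70000.4, 64322 and 62066 from 0 to 9 h, and 52952, 52111, 49568 and 53315 from 12 to 21 h. It was 49708, 65354, 51816 and 41442 from 24 to 33 h and 24099, 31049, 30836 and 24094 from 36 to 45 h, again below every earlier array. At 0 h it stood at 96.1% of the array maximum and has the same limit. The log2 value of MT2A was 16.12 at 0 h and 14.24 at 45 h, a difference of 3.68-fold, and that of MT1A was 16.11 and 14.92, a difference of 2.27-fold. Both are lower limits of the change if the first arrays were saturated, which was not tested.

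MT1X, which is regarded as a broadly expressed member, differed in its course from the others. Its signal was 65254, 50622, 42249 and 47727 from 0 to 9 h, and 50881, 55269, 59097 and 58808 from 12 to 21 h. It was 52560.0, 67453, 61819 and 51058 from 24 to 33 h and 47008, 58903, 53061 and 42404 from 36 to 45 h. The arrays of the 4 parts of the course overlapped. On the log2 scale MT1X started at 15.99, was lowest at 9 h (15.47), stood at 15.89 by 30 h and ended at 15.72, so that its values spanned 0.51 log2 units in all. The probe was also bright, between 57.9% and 92.8% of the array maximum. Between 0 h and 45 h the change of MT2A was lower than that of MT1X by 1.61 log2 units, and this difference was -0.55 at 33 h and -1.40 at 36 h.

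MT1M was detected on 0 of the 16 arrays. Its signal lay between 140.4 and 213, with a median of 185, and it entered neither the tests nor the counts below.

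**Figure D2:**
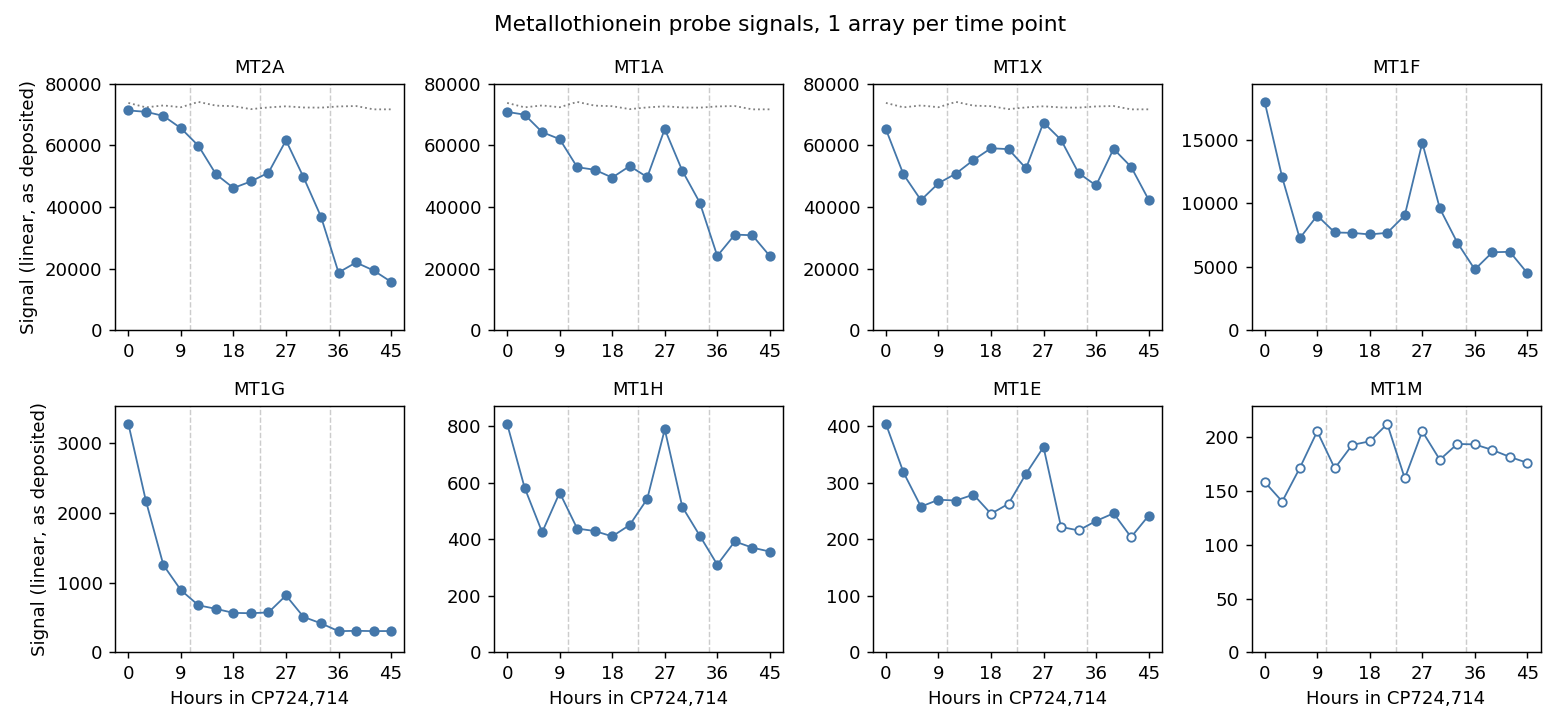
Deposited signal (linear, vertical axes from 0) of the 8 metallothionein probes against hours in CP724,714, with 1 array per point. Filled points were detected and open points were not, the dotted line in the first 3 panels is the brightest probe of each array, and dashed lines separate sets of 4 consecutive arrays. MT2A and MT1A started near the top of the scale, MT1G was lowest from 36 h, and MT1M was detected on 0 arrays.

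**Figure D3:**
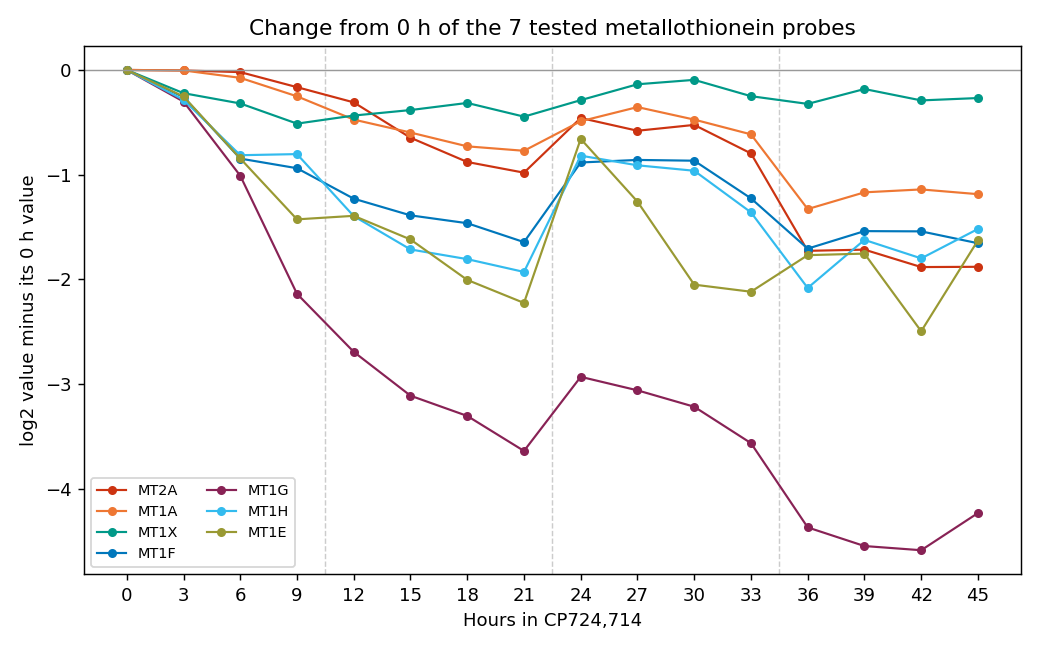
Log2 value of the 7 tested metallothionein probes minus the value of the same probe at 0 h, against hours in CP724,714, with 1 array per point and dashed lines between sets of 4 arrays. MT1G reached -4.23 at 45 h, MT1X -0.27, and the other 5 lay between -1.88 and -1.19.

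Most members had steps in the same direction in several intervals, with MT1X moving least. From 0 to 3 h and from 3 to 6 h all 7 tested members had a lower value on the later array, though MT1A and MT2A differed by less than 0.01 log2 units from 0 to 3 h, while 52.3% and 50.5% of all tested probes had a higher one. Between 21 and 24 h all 7 had a higher value, by 1.57 log2 units for MT1E, 1.11 for MT1H, 0.76 for MT1F, 0.71 for MT1G, 0.52 for MT2A, 0.28 for MT1A and 0.16 for MT1X. The median step was 0.71, and 3.02% of all tested probes rose as far in that interval. Between 33 and 36 h 6 of the 7 had a lower value, with a median step of -0.71 that 2.77% of all tested probes matched or passed. The step was -0.93 for MT2A and -0.71 for MT1A, whereas it was -0.07 for MT1X, and MT1E was the exception with 0.35. Both intervals also separate blocks of 4 successive arrays, a grouping (0 to 9, 12 to 21, 24 to 33 and 36 to 45 h) that was noticed in the data. The labels name no batch, and a change in the cells between 2 such sets cannot be told apart from a difference between the sets.

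Values were also compared within each set. Comparing the last array of a set with its first, the tested members had a lower value in 7 of 7 cases over 0 to 9 h (median -0.80 log2 units), in 7 of 7 over 12 to 21 h (median -0.53) and in 6 of 7 over 24 to 33 h (median -0.34). Over 36 to 45 h 1 of 7 was lower, MT2A, and the median was 0.14. MT1G was lower by 2.14, 0.95 and 0.63 in the first 3 sets and MT2A by 0.16, 0.67 and 0.34. In all, 6 of the 7 members were lower in each of the first 3 sets, as were 13.8% of all tested probes, and the exception was MT1X, with 0.04 over 24 to 33 h. The members were chosen with these courses known, and nothing is read from this count.

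**Figure D4:**
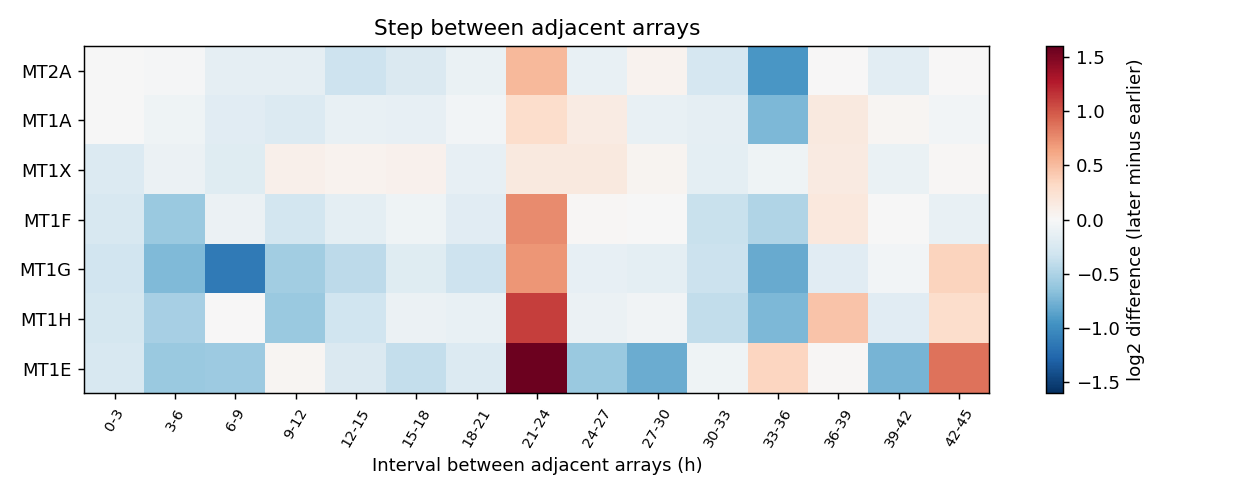
Log2 difference between each pair of adjacent arrays (later minus earlier, colour scale) for the 7 tested metallothionein probes, with the interval in hours on the horizontal axis. The column for 21 to 24 h is above 0 for all 7 probes and the column for 33 to 36 h is below 0 for all but MT1E.

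A straight-line part of the course was estimated for each of the 16110 probes detected on at least 3 arrays, with a cubic fit in hours by limma. This linear change, scaled to the whole 45 h, came to -4.04 ± 0.28 log2 units (SE) for MT1G, -1.91 ± 0.19 for MT2A, -1.54 ± 0.34 for MT1E and -1.21 ± 0.28 for MT1H. It was -1.17 ± 0.15 for MT1A, -1.12 ± 0.18 for MT1F and 0.04 ± 0.07 for MT1X. The estimate for MT1X took either sign with the scaling, at -0.13 with median scaling and -0.02 with cyclic loess. The median of the 7 probes was -1.21, against 0.05 for all tested probes. At an adjusted p under 0.05 in limma, 6 of the 7 had a linear change and all 6 were falling, where 47.7% of all tested probes had one and 21.7% had a falling one. At 45 h 6 of the 7 were at least 2-fold lower than at 0 h, which held for 9.3% of all tested probes and was not tested. The members were chosen with these courses known, so these counts follow from the choice of members, and nothing is read from them. With the set of 4 arrays as a factor the estimates were -4.96 ± 1.10 (SE) for MT1E, -4.44 ± 1.10 for MT1G, -2.10 ± 0.57 for MT1F and -1.80 ± 0.78 for MT1H. They were -1.63 ± 0.34 for MT2A, -0.71 ± 0.31 for MT1A and -0.52 ± 0.35 for MT1X. These estimates scale differences within 9 h up to 45 h. That of MT1E is larger than the 2.49 log2 units its values spanned in all. An alternative chosen after the data were seen used only the 12 arrays of 12 to 45 h. Its linear changes, again scaled up to 45 h, were -2.36 for MT1G, -2.02 for MT2A and -0.98 for MT1A. They were -0.62 for MT1E, -0.41 for MT1F, -0.17 for MT1H and 0.22 for MT1X. In size these values exceed the linear part of the change within the hours covered. For MT2A the log2 value was 15.81 at 12 h and 14.24 at 45 h.

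The members differed in how alike their courses were. Over the 16 arrays, which all pairs share, the Pearson correlation was 0.97 between MT1F and MT1H and 0.97 between MT2A and MT1A. It was 0.90 between MT1F and MT1G, 0.87 between MT1G and MT2A, 0.51 between MT1F and MT1X and 0.05 between MT1X and MT2A. After a straight line in hours was removed from each probe, it was 0.96 for MT1F with MT1H, 0.89 for MT2A with MT1A, 0.82 for MT1F with MT1X and 0.33 for MT1G with MT2A. These values are descriptions of 16 arrays, and transcripts of 1 gene bound by the probe of another would also bring courses together. A shared top of the scale could do so too. From 0 to 6 h MT2A stood between 95.35% and 98.0% of the array maximum and MT1A between 88.1% and 96.7%. Neither was tested.

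Other metallothionein genes on the array had 5 probes. MT1B, with signals from 177 to 228, was detected on 1 array, and MT3, a member known from brain, MT4, a member known from stratified epithelium, and MT1P2 (MT1HL1 in RefSeq) on 0. MTE is a synonym of the pseudogene MT1IP in RefSeq, which lies between MT1H and MT1X. Its probe was detected on all 16 arrays and its signal was 7769.6 at 0 h and 3064 at 9 h. After normalization its log2 value fell from 12.93 on the first array to 11.04 on the 21 h array. It was higher on the 27 h array (11.41) and on the 33 h array (11.15). The probe ended with a signal of 1264 and a log2 value of 10.49. Its linear change was -1.97 ± 0.16 (SE) log2 units over 45 h (limma, adjusted p = 1.08e-08). The probe can share transcripts with the expressed members.

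Genes that handle the metals bound by metallothioneins were called about as often as all probes. Of 36 zinc and copper genes, 35 were on the array and 32 were tested, of which 10 rose, 5 fell and 17 did not pass the test. The 15 called are 46.9% of those tested, near the 47.7% of all tested probes, and the median linear change was -0.01 log2 units. MTF1, the factor that drives metallothionein genes when zinc rises, had a signal between 545 and 1341 and a linear change of 0.19 ± 0.13 (SE, adjusted p = 0.238). SLC30A1, the plasma membrane zinc exporter that MTF1 also drives, started at a signal of 814, was lowest at 6 h with 519 and highest at 27 h with 1631, and ended at 677. It rose by 0.36 ± 0.12 (adjusted p = 0.0206), a call that was lost with cyclic loess (adjusted p = 0.0751), with a straight line alone (adjusted p = 0.0553) and without the 6 h (adjusted p = 0.0634), 9 h (adjusted p = 0.0503) or 39 h array (adjusted p = 0.0612). Its log2 value was 9.47 at 0 h and 9.41 at 45 h, a difference of less than 0.1.

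The largest rises in the zinc and copper list were those of SLC39A2, a zinc importer, by 1.59 ± 0.21 (adjusted p = 2.92e-06), and ATP7A, a copper-exporting ATPase, by 1.12 ± 0.14 (adjusted p = 2.57e-06). SLC31A2, a copper transporter, rose by 0.92 ± 0.10 (adjusted p = 4.98e-07). SLC30A2, a zinc transporter of vesicles known for its part in lactation, rose by 0.62 ± 0.23 (adjusted p = 0.0341), and lost this call with cyclic loess (adjusted p = 0.0703), a straight line alone (adjusted p = 0.0622) or without any 1 of the arrays at 12, 15, 39, 42 and 45 h (adjusted p from 0.0518 to 0.103). Falls were also called for SLC30A3, a vesicular zinc transporter (-0.87 ± 0.14, adjusted p = 3.71e-05), SLC30A8, a zinc transporter known from insulin granules (-0.62 ± 0.14, adjusted p = 0.00118), and SLC39A1, a zinc importer (-0.32 ± 0.07, adjusted p = 0.00125). ATP7B, a copper-exporting ATPase known from liver, fell by 0.58 ± 0.17 (adjusted p = 0.00892). Its dimmer probe changed by -0.16 ± 0.20 (adjusted p = 0.528), and without the 0 h array the brighter one was not called (adjusted p = 0.101). Without background correction the values of ATP7B (-0.27), SLC30A8 (-0.40) and SLC39A2 (1.03) were smaller. Over 12 to 45 h alone none of these 4 falls was called, with -0.12 for SLC30A3 (adjusted p = 0.551), -0.59 for SLC30A8 (adjusted p = 0.0585), -0.17 for SLC39A1 (adjusted p = 0.192) and -0.23 for ATP7B (adjusted p = 0.589). SLC30A3 stood at a log2 value of 9.97 at 9 h and 9.18 at 12 h, on either side of a border between sets. Over the same hours the rise of SLC30A1 was not called (adjusted p = 0.139), and the values were 0.65 for ATP7A and 1.58 for SLC30A2. All values over 12 to 45 h alone are scaled up to 45 h.

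Most genes of the glucocorticoid list rose. Of 11 genes on the array, all tested, 8 rose, 0 fell and 3 did not pass, where 26% of all tested probes rose. This list, like the zinc and copper and the NRF2 lists, was chosen with earlier results of these data known. Nothing is read from its count. The median linear change was 0.97 log2 units. The 3 genes that did not pass, named for that reason, were FKBP5 (0.26 ± 0.12, limma, adjusted p = 0.0878), PER1 (0.34 ± 0.22, adjusted p = 0.212) and ERRFI1 (-0.33 ± 0.30, adjusted p = 0.397). HSD11B2, which converts cortisol to the inactive cortisone, started at a signal of 6383, had 22886 at 9 h and 38222 at 21 h, ended at 45388, and rose by 3.02 ± 0.15 (SE, adjusted p = 2.49e-11). SGK (SGK1 in RefSeq), a kinase known as a glucocorticoid target, rose by 1.69 ± 0.15 (adjusted p = 2.34e-08). TSC22D3, known as a glucocorticoid-induced leucine zipper protein, rose by 1.38 ± 0.18 (adjusted p = 2.51e-06), and DUSP1, a MAP kinase phosphatase, by 1.17 ± 0.10 (adjusted p = 7.78e-09). The brightest probe of NR3C1, the glucocorticoid receptor, rose by 1.00 ± 0.14 (adjusted p = 9.72e-06), while a dimmer one changed by -0.10 ± 0.28 (adjusted p = 0.801). The rise of NR3C1 was 0.66 without background correction. That of TSC22D3 over 12 to 45 h, scaled up to 45 h, was 0.77. Hydrocortisone was in the medium of all cultures by either description, and its level over time was not measured. Several of these genes are known to answer to other signals too.

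Of 9 oxidative stress genes driven by NRF2, all tested, 1 rose, 3 fell and 5 did not pass, so that 44.4% were called against 47.7% of all tested probes. Among the 5, NQO1 is named because its probe lay near the top of the scale. Its signal was between 57607 and 69857, up to 97.3% of the array maximum, so that a rise may not have been resolved. HMOX1, heme oxygenase, rose by 1.09 ± 0.17 log2 units (SE, adjusted p = 2.08e-05). SLC7A11, the cystine importer, fell by 1.45 ± 0.38 (adjusted p = 0.00408) and TXNRD1, thioredoxin reductase, fell by 0.30 ± 0.08 (adjusted p = 0.00584). The second probe of TXNRD1 changed by -0.17 ± 0.13 (adjusted p = 0.306). The SLC7A11 probe was detected on 11 arrays, and its change was -0.55 without background correction. Over 12 to 45 h the values, scaled up to 45 h, were 0.59 for HMOX1 and -0.53 for TXNRD1. With the set of 4 arrays as a factor, limma called 0 genes of each of the 3 lists, while 3 zinc and copper genes, 5 glucocorticoid genes and 1 NRF2 gene had an unadjusted p under 0.05. The estimates of HMOX1 (-0.13), SLC30A1 (-0.50), SLC30A3 (0.20), SCO1 (0.44), CCS (-0.04) and SLC30A9 (-0.04) then had the opposite sign. The last 3 genes, named because of that change, had -0.28, 0.32 and 0.35 without the factor.

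**Figure D5:**
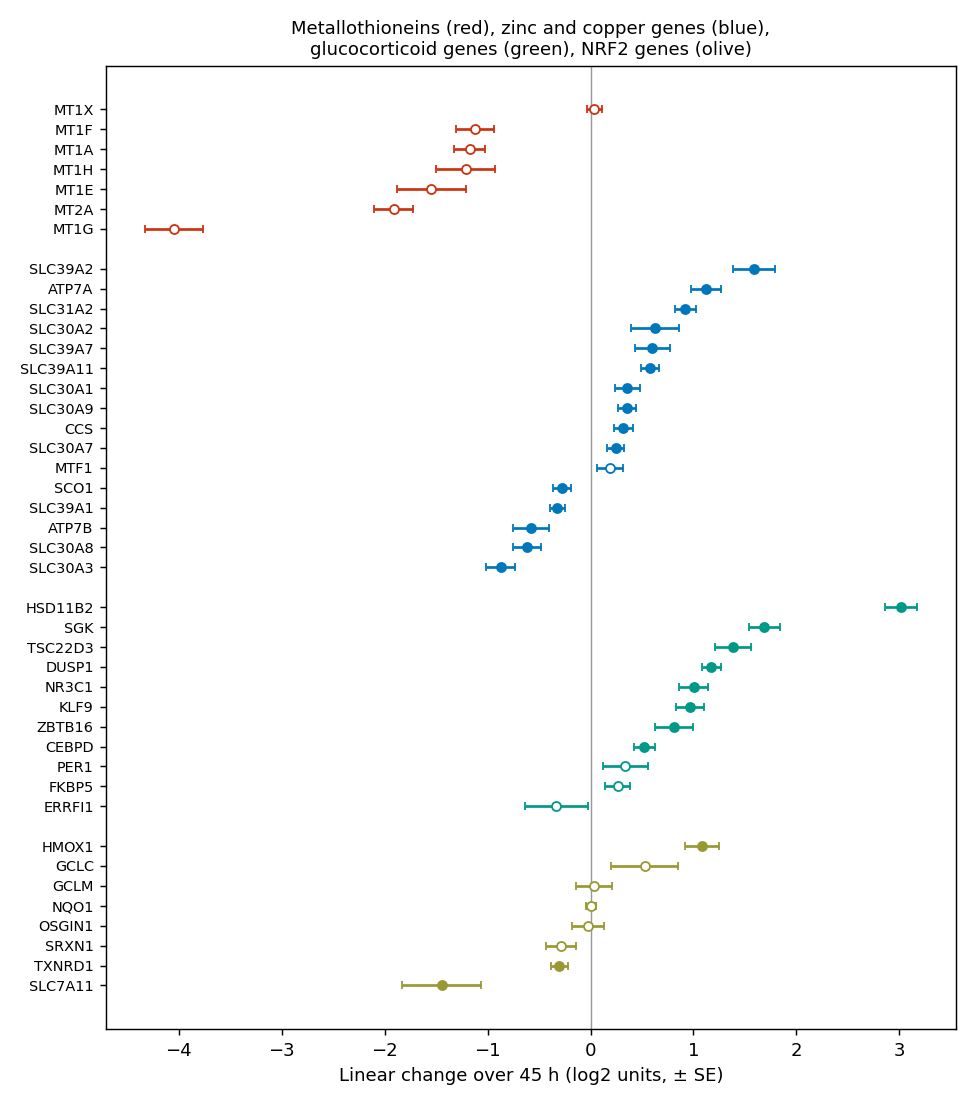
Linear change over 45 h in log2 units, with SE, for the 7 tested metallothioneins (red), the called zinc and copper genes with MTF1 (blue), all tested genes of the glucocorticoid list (green) and 8 of the NRF2 list (olive). Filled points passed an adjusted p of 0.05 and open points did not, except that all metallothioneins are open because they were chosen on these courses. 6 metallothioneins lie below -1.1, MT1X lies at 0.04, and 8 of the 11 glucocorticoid genes are filled and above 0.

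The genes with the course most like MT2A were found among the 16102 tested probes of other genes by Pearson correlation over the 16 arrays. They were FAM64A (PIMREG in RefSeq), a mitotic regulator (r = 0.99), CDCA8, a subunit of the chromosomal passenger complex (0.99), CCNA2, cyclin A2 (0.98), AURKA, a mitotic kinase (0.98), and PRC1, a spindle midzone protein (0.98). CCNA2 started at a log2 value of 12.00, had 10.60 by 21 h and ended at 8.90. Against the mean course of the 6 members detected on all arrays the closest were ENDOGL1 (EXOG in RefSeq), a mitochondrial nuclease (0.98), CPVL, a carboxypeptidase (0.97), SQLE, squalene epoxidase of sterol synthesis (0.97), LOC653814 (0.96) and TRIP13, an ATPase of the mitotic checkpoint (0.96). ENDOGL1 started at 13.80, had 11.36 by 21 h and ended at 10.79. All of these correlations share the arrays and the passage of time, and the MT2A probe started near the top of the scale. The names depend on the measure, since by Spearman correlation 1 of the 5 genes nearest to MT2A and 1 of the 5 nearest to the mean course remained.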

How the data were processed

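Total RNA of 16 parallel SUM-225 cultures, grouped by the hour in their labels with 1 sample per hour, was measured on Illumina bead arrays. The authors deposited for each probe a linear signal intensity without background subtraction or normalization, and a deposited detection p-value from the negative control probes. The study's methods name a later quantile normalization, in a passage on its other cell lines. The genome build and the scanning software are not given in the sources used here.

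In R 4.3.3, limma 3.58.1 (neqc) corrected the background by normexp, taking the negative controls from the detection p-values, added 16 to each signal, quantile normalized the arrays and took log2. Adding 16 makes changes near background smaller. The fit used those probes that were detected (p under 0.05) by 3 arrays or more, with a cubic polynomial in hours (lmFit, eBayes with an intensity trend). Its first-order term, scaled to 45 h, is the linear change. All tests were two-sided, with Benjamini-Hochberg adjusted p-values over the 16110 probes and a threshold of 0.05. Errors came from deviations around the fitted course, because no time point had a replicate, and they measure only the spread between these samples. The number of arrays limits the precision.

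The members, the gene lists and the rule for named genes were chosen with earlier results of these data known. The rule named every member and the other metallothioneins, up to 4 rises and 4 falls per list past the threshold, MTF1, SLC30A1 and NR3C1, and the 5 genes most like MT2A and like the mean course. Of several probes of a gene the brightest was used. A listed gene and a marker are counted but not reported here. Alternatives were other background, offset, normalization, filter, course and weight settings and each array left out. Arrays of 12 to 45 h alone were added after the data were seen. The fit was tested on simulated data. Motifs were searched in RefSeq promoters with Python 3.11.15, and figures were drawn with matplotlib 3.10.9.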

Additional observations from a re-analysis of the deposited data

How the results depend on the processing

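Under median scaling, cyclic loess, array weights, a straight line alone, an offset of 50, no filter and no background correction, 6 of the tested members had a falling linear change, and 5 of 6 when only probes detected on all arrays were used. With the set of 4 arrays as a factor, in which only differences within 9 h count and errors are larger, 145 probes and 2 member probes had a linear change, the median of the members was -1.80, and 0 genes of the zinc and copper, glucocorticoid and NRF2 lists did (limma, unadjusted p under 0.05 for 3, 5 and 1). Over 12 to 45 h, with fewer arrays, 4756 probes and 3 members had one. The member median, scaled up to 45 h, was -0.62. Under the settings named first, between 31% (no filter) and 51.9% (array weights) of all tested probes had a linear change in either direction. The share was 55.2% for probes detected on all arrays, 0.9% with the factor and 30.2% over 12 to 45 h. The members were chosen on their courses, and nothing is read from their counts.

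With each array left out in turn, between 6831 (without 3 h) and 7750.0 (without 15 h) probes had a linear change, 6 members each time, 13 to 18 zinc and copper genes, 8 to 9 glucocorticoid genes and 4 to 5 NRF2 genes. Of all tested probes, between 42.6% (without 3 h) and 48.3% (without 15 h) had a linear change. The member median ranged from -1.36 to -1.11. The linear change of MT1X, not called under any of these settings, lay between -0.01 (without 9 h) and 0.16 (without 0 h).

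By Spearman correlation 1 of the 5 genes nearest to MT2A and 1 of the 5 nearest to the mean course remained, and on residuals from a straight line 1 of the latter. The cause was not tested. The median linear change of all probes lay between 0.003 and 0.04 under the other background, offset and normalization settings, and the share of rising calls between 48% (cyclic loess) and 54.4%. No paired analysis was possible because the time points had 1 array each. The probes of MT2A and MT1A started near the top of the scale and those of MT1E and MT1M lay near background, and saturation was not tested.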
